A study of Homo sapiens with 7 samples.

Results

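Catechin, epicatechin and taxifolin are flavonoids of pine bark, and their responses were read from 3 of the 7 arrays of a study on HT1080 cells, an established human fibrosarcoma line. The 3 arrays were grouped by their treatment labels, though earlier results of these data were known when the compounds to compare were chosen. They were compared as a group (mean log2 signal) with the array of untreated cells, and each of them with the mean of the other 2. The 4 other arrays held cells given resveratrol, control serum or pycnogenol serum, and the untreated cells, and they served to show whether a shift set the flavonoid arrays apart or the untreated array. Catechin was given at 11.25 ng/ml, epicatechin and taxifolin at 6.25 ng/ml each and resveratrol at 2195 ng/ml, all for 2 h. The serum cultures held 5% of a control serum or of a serum positive for pycnogenol, a maritime pine bark extract, also for 2 h. All cells were kept in medium with fetal bovine serum, and the medium was renewed when a compound or test serum was added. For the untreated cells neither a waiting time nor a change of medium is labelled, and no solvent is named for any culture, so these steps cannot be told apart from the compounds in any difference from that array. Each group was 1 culture on 1 array. There was thus no replicate error, no p-value and no interval for any difference, and all values describe single arrays.

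Flavonoids are plant polyphenols with a shared skeleton of a pair of aromatic rings joined by an oxygen-containing ring. Catechin and epicatechin are diastereomers that differ in the configuration at the carbon of that central ring which bears a hydroxyl group, and taxifolin, also named dihydroquercetin, has a ketone on the central ring besides. Resveratrol is a stilbene, a polyphenol without the central ring. Flavonoids are best known as antioxidants and as compounds that can modify the KEAP1 sensor, which then releases the transcription factor NRF2 (encoded by NFE2L2) to switch on genes of glutathione synthesis, thioredoxin and quinone reduction. They are also metabolised by methylation, sulfation and glucuronidation, and have been studied as inhibitors of NF-kB signalling and of matrix proteolysis, processes of interest in an invasive sarcoma line.

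The signals were MAS5 intensities on a linear scale in arbitrary units. The mean of each array after leaving out 2% of values at either end was 1000.1, so the arrays had been brought to a common level. Median signals ran from 114 to 136 over the 7 arrays and from 121 to 123 over the 3 flavonoid arrays. A difference is a difference of log2 signals, and a probe set was counted when it differed by at least 2-fold. A probe set is a group of oligonucleotides that reads 1 stretch of a transcript. Compared were 20157 probe sets with a mean signal of at least 269 over the 7 arrays, 17649 of them assigned to exactly 1 gene. At that limit the faintest probe set kept had a mean signal of 268.94 and the brightest left out one of 268.89. Of the mesenchymal markers on the array, which include VIM and CD44, 14 of 17 passed this limit, against 1 of 11 epithelial markers (OCLN), none of 8 endothelial markers and 1 of 8 blood markers (HBB). The ratio of the 3' to the 5' probe set of ACTB (beta-actin), a sign of how complete the labelled transcripts were, was 3.56, 4.02 and 3.05 in the catechin, epicatechin and taxifolin arrays. It lay between 2.40 and 2.82 in the 4 others, so the ranges did not overlap. The same ratio for GAPDH was 1.02 to 1.10 in the flavonoid arrays and 0.961 to 1.12 in the others.

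The 3 flavonoid arrays lay about as far from one another as from the untreated array. Over probe sets, log2 differences had a standard deviation (SD) of 0.264 to 0.287 for the 3 flavonoid pairs and 0.280 to 0.285 for each flavonoid against untreated. Against resveratrol it was 0.280 to 0.310, and against the control and pycnogenol serum arrays 0.346 to 0.363 and 0.369 to 0.402. The flavonoid pairs had 85 to 131 probe sets past 2-fold, and the flavonoids against untreated 116 to 130. Catechin was past 2-fold from untreated in 120 probe sets (0.595%), 53 higher and 67 lower. For epicatechin the number was 116 (0.575%), 25 higher and 91 lower, and for taxifolin 130 (0.645%), 47 higher and 83 lower. Resveratrol, measured against the same untreated array, had 236 (1.17%). Centring each array on its median turned the catechin split to 80 higher and 44 lower, the epicatechin split to 45 and 67 and the taxifolin split to 57 and 58, and quantile normalization turned that of epicatechin to 45 and 71. The excess of lower over higher probe sets thus turned round for catechin and narrowed for the other 2. The spread fell with brightness. Over the dimmest, middle and brightest 6719 probe sets, the SD between epicatechin and taxifolin was 0.382, 0.258 and 0.183.

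**Figure D1:**
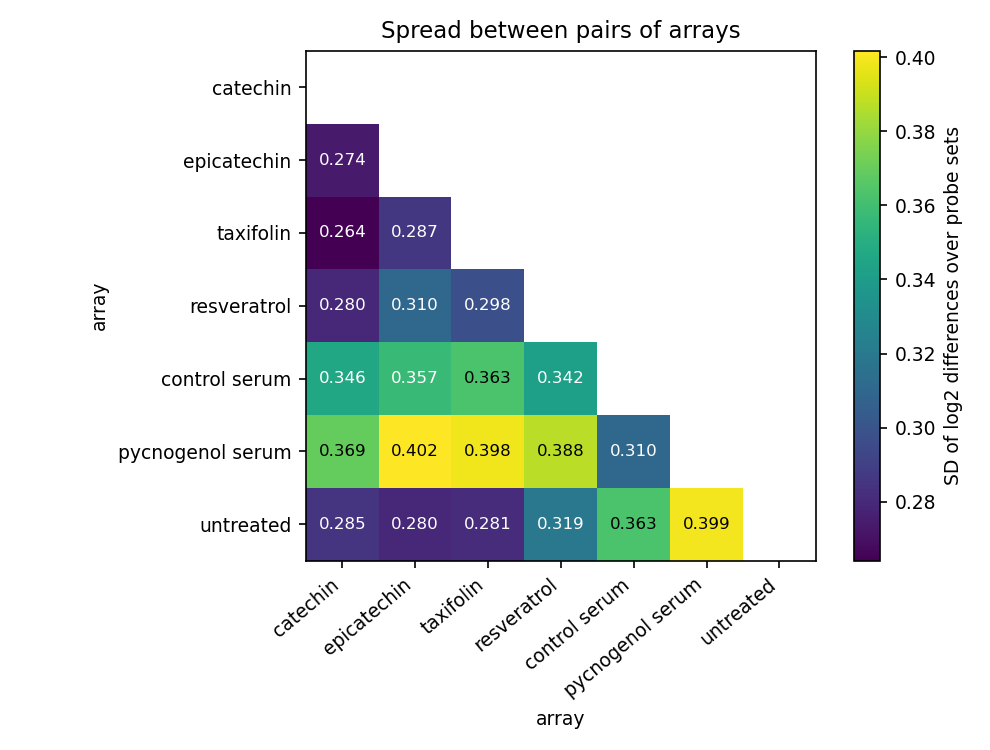
Standard deviation of the log2 signal differences over 20157 probe sets for each pair of the 7 arrays, shown as a colour and as a number. The 3 pairs of flavonoid arrays (0.264 to 0.287) and the flavonoids against untreated (0.280 to 0.285) lie close together, and the pairs of a flavonoid with a serum array are wider.

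As a group, the flavonoids differed from untreated by at least 2-fold in 41 of 20157 probe sets (0.203%), 21 higher and 20 lower. With 1 probe set a gene it was 17 of 9888 genes (0.172%). Higher signals were read for GTF3C4, a subunit of the factor that recruits RNA polymerase III, for MAPK11, the beta form of the p38 kinases, for NOL3, an inhibitor of apoptosis, and for ACACB and DECR2, enzymes of fatty acid metabolism. Lower signals were read for SPN, a leukocyte surface sialoglycoprotein, for MALAT1, a nuclear long noncoding RNA, and for DOT1L, KMT2A and CHD9, which modify or remodel chromatin. Signals below are given in the order catechin, epicatechin, taxifolin, resveratrol, control serum, pycnogenol serum and untreated.

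The probe set with the largest difference upward, of GTF3C4, read 482, 379.9, 515, 412, 431, 338 and 119.8. Its difference of flavonoids from untreated was 1.93, and the untreated array was low while resveratrol and both sera stood with the flavonoids. NOL3 read 414, 344, 368, 309.8, 271, 239 and 137, a difference of 1.45, and here the 3 flavonoid arrays were also above all 4 others. Its 2 other probe sets above the limit differed from untreated by 0.28 and -0.17. From the mean of the 4 others they differed by -0.024 and -0.068, and the flavonoid arrays overlapped the others in both. PPP2R5A, which directs protein phosphatase 2A to its substrates, read 1334, 1154, 1092, 978, 1028, 945 and 458. It differed by 1.38, with the 3 flavonoids highest, the untreated array lowest and a gap of 0.087 on the log2 scale between the lowest flavonoid and the highest other array. ACACB read 375, 363, 483, 379, 202, 179.6 and 153 and differed by 1.40. Both serum arrays were near the untreated array there, and resveratrol was among the flavonoids. The other probe sets named upward (LINC01210, MAPK11, DECR2, SSH3, FUOM, YWHAZ, TVP23C and CDK8) differed by 1.23 to 1.78.

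Downward, SPN read 143, 346, 135, 542, 550.1, 482 and 833, a difference of -2.15. All 3 flavonoid arrays were below all 4 others, and epicatechin was above catechin and taxifolin. A MALAT1 probe set read 1833, 2509, 3814, 1783, 3885, 3349 and 7525 and differed by -1.53, the untreated array being the highest and resveratrol lying below all 3 flavonoids. DOT1L, a histone methyltransferase, read 398, 209, 330.2, 683, 421, 441 and 751 and differed by -1.32. The flavonoids lay below the others there, with control and pycnogenol serum closest. Some of these means rested on 1 flavonoid. JPT2, a calcium signalling adaptor, read 583, 468, 73.4, 572, 629, 678 and 691, low with taxifolin alone, and TRABD read 11.7, 371, 524, 204, 446, 533 and 541, low with catechin, whose signal was under the floor of 34.9 that all low signals were raised to.

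**Figure D2:**
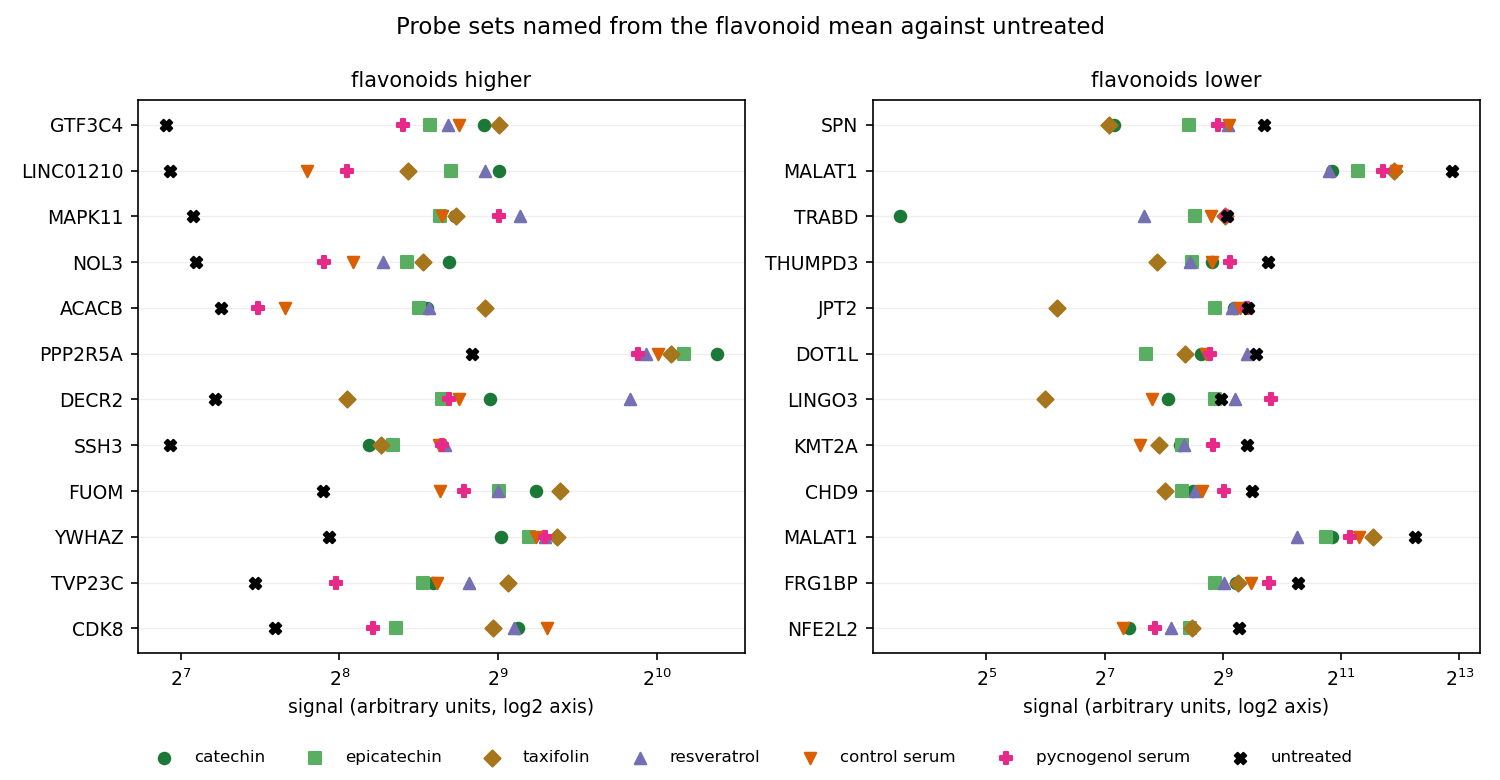
Signal of each array (log2 axis, arbitrary units) for the 24 probe sets named from the flavonoid mean against untreated, 12 higher at the left and 12 lower at the right. The untreated array (black crosses) is the lowest of all 7 in each probe set at the left, and at the right the 3 flavonoid arrays lie below all 4 others for SPN (gap -0.48 on the log2 scale), DOT1L (-0.08) and CHD9 (-0.028).

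The position of the 4 other arrays was then read in these 41 probe sets. The untreated array was the outermost of all 7 arrays in 38 of the 41, and it lay outside the range of the other 6 in 5631 of all 20157 probe sets (27.9%). Since the 41 were picked for their distance from the untreated array, the first share is a description. In 13 of the 41 the 3 flavonoid arrays did not overlap resveratrol and untreated, as in 3779 of all 20157 (18.7%), and nothing is read from this count, since the 41 were picked on the same arrays. In 17 of the 41 each of the 3 flavonoids was at least 2-fold from untreated on its own, 11 higher and 6 lower. With resveratrol in place of untreated as the reference, the flavonoid mean was past 2-fold in 60 probe sets (0.298%), 32 higher and 28 lower, and with the mean of the 4 other arrays in 18. Dim probe sets prevailed, as the median of the mean signals of the 41 was 369 against 1446 over all 20157, and 17 of the 21 higher ones had an untreated signal under 269. Without the epicatechin array the count was 64. Quantile normalization gave 29 higher and 18 lower, and centring on the median 30 and 16.

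Where a gene had other probe sets above the limit, these often read otherwise. The 24 probe sets named from the group comparison belong to 23 genes, 14 of the 24 had other probe sets, and 30 of these 45 others lay on the same side of 0, those of MALAT1 being counted for each of its 2 named probe sets. Without MALAT1 it was 14 of 29. GTF3C4 had 2 others, at -0.05 and -0.04 on the log2 scale. YWHAZ, a 14-3-3 adaptor protein, differed by 1.26 in the named probe set and by -0.32 to 0.16 in its 4 others. CDK8, the kinase of the Mediator complex, differed by 1.23 against -0.16 and -0.08 in 2 others, and MAPK11 by 1.62 against -0.48. In contrast, all 9 probe sets of MALAT1 were below 0, from -1.53 to -0.12, and all 7 of KMT2A, a histone methyltransferase, from -1.24 to -0.02. That holds against untreated only. Against the mean of the 4 other arrays both genes lay on either side of 0, MALAT1 from -0.54 to 0.16 and KMT2A from -0.38 to 0.36. NFE2L2, the gene of NRF2 itself, differed by -1.15 in 1 probe set, which read 170.5, 350.3, 358, 279, 159, 231 and 616, and by 0.12 in the other, which read 18174, 17632, 17672, 16079.8, 15783, 12102 and 16392. In the second, the 3 flavonoid arrays were above all 4 others, with catechin the highest array and pycnogenol serum the lowest. Over all probe sets, the flavonoid arrays did not overlap the 4 others in 7.1%.

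**Figure D3:**
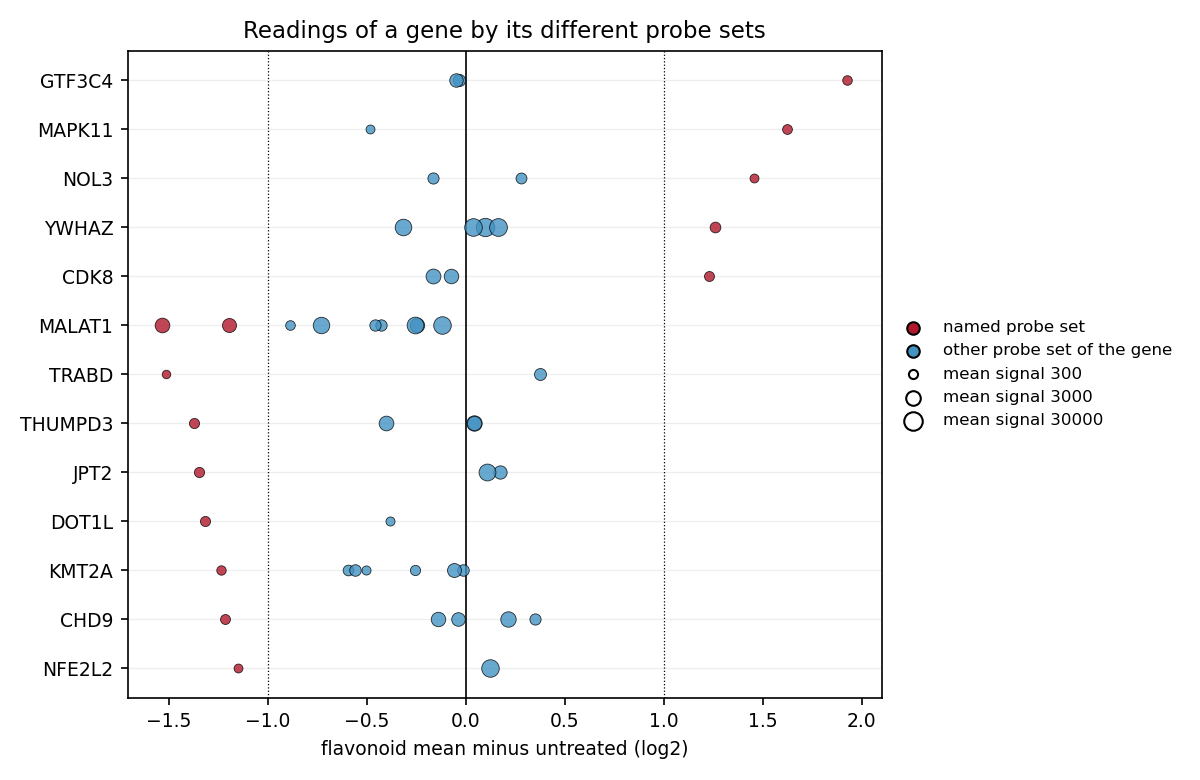
Flavonoid mean minus untreated (log2) for every probe set above the signal limit of the named genes that have more than 1, with named probe sets in red, other probe sets in blue and larger points for higher mean signals. For GTF3C4, YWHAZ, CDK8 and JPT2 the other probe sets lie near 0, while all those of MALAT1 and KMT2A lie below it; the dotted lines mark 2-fold.

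Over the 4702 genes with at least 2 probe sets above the limit, a reading chosen after the data were seen, 17 had any probe set past 2-fold in the group comparison and none had all of them past it. MED18, a subunit of the Mediator head, was the 1 gene with every probe set at least 1.5-fold away (0.0213%). It differed by -0.60 and -0.65, and its probe sets read 698, 294, 444, 527, 597, 618 and 704 and 587, 239, 532, 558, 421, 527 and 639.5. Epicatechin was the lowest array in both and catechin the nearest flavonoid to untreated in both, with taxifolin between them. GLIS3, a zinc finger transcription factor, differed by -0.53 and -0.54. One of its probe sets read 1624, 1713, 1557, 1711, 1810.2, 1690.4 and 2373, and untreated alone was high.

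The 3779 probe sets (18.7%) in which the 3 flavonoid arrays did not overlap resveratrol and untreated were 2017 higher and 1762 lower. They did not overlap any of the 4 others in 1431 (7.1%), 849 higher and 582 lower. Few of these were large. Past 2-fold were 6 probe sets in the first set (0.0298%) and 2 in the second (0.00992%), SPN lower and ECM2, an extracellular matrix protein, higher. ECM2 read 733, 853, 722, 692, 206, 219.99 and 617, so that the serum arrays set the size of its difference and resveratrol lay just under the flavonoids. The 3'/5' ratio of ACTB separates the same arrays (3.05 to 4.02 against 2.40 to 2.82), and its part in these 1431 probe sets was not tested.

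The widest gap downward was that of TAGLN, the actin-binding protein transgelin of contractile and mesenchymal cells. It read 186, 225, 212, 321, 379, 493 and 332, a gap of -0.51 on the log2 scale with a mean difference from the 4 others of -0.86. It has no other probe set above the limit. TPM2, a tropomyosin that lies on the same actin filaments, has 2 probe sets above the limit. In 1 the flavonoids were below all 4 others, with signals of 322, 271, 260.2, 494, 547, 545 and 361. The other read 12606, 14113, 10745, 13342, 14874, 14833 and 14797, and there epicatechin lay above resveratrol, so the groups overlapped. BCL11A, a transcriptional repressor, read 966, 1105, 850.4, 1369, 2254, 1625 and 1477 with a gap of -0.31. Its 3 other probe sets differed from the mean of the 4 by -0.35 to -0.18, the named one by -0.77. From untreated alone those 3 differed by only -0.074 to 0.0045, and both serum arrays were the highest in each of them. SKIL, a corepressor of TGF-beta signalling, read 309, 318, 306, 404, 717, 578 and 428, a gap of -0.35, with a mean difference from the 4 of -0.74. Its other 2 probe sets differed from the 4 by -0.45 and -0.43 but were 0.051 and 0.20 above untreated, so the 2 serum arrays, which were far above all others, set their sign.

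Upward, IFT81, a component of intraflagellar transport, read 1502, 1755, 1451, 949, 1137, 1083 and 1140.3, a gap of 0.35. AFAP1, an actin filament crosslinker, read 819, 836, 763, 600.3, 472, 489 and 566, with the same gap of 0.35. PXDN, a peroxidase that crosslinks basement membrane collagen, read 424, 371, 381, 294, 233, 300.3 and 281, a gap of 0.30. It differed from the mean of the 4 by 0.51 and its other probe set by 0.081. Among the genes read by at least 2 probe sets, chosen after the data were seen, 328 of 4702 (6.98%) had a mean over probe sets in which the flavonoid arrays did not overlap the 4 others, 162 higher and 166 lower. APOL6, a member of the apolipoprotein L family, had the widest gap of these at 0.32, with means of 538, 517, 482, 384, 268, 215 and 385, though 1 of its 2 probe sets overlapped on its own. GAD1, the glutamate decarboxylase, followed with means of 490.1, 448, 442, 373, 377, 349 and 347, and neither of its 2 probe sets overlapped. GAREM1, an adaptor of growth factor signalling, had the widest gap downward at -0.29, with means of 275, 276, 261, 339, 414, 389 and 336, and 1 of its 2 probe sets overlapped on its own.

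**Figure D4:**
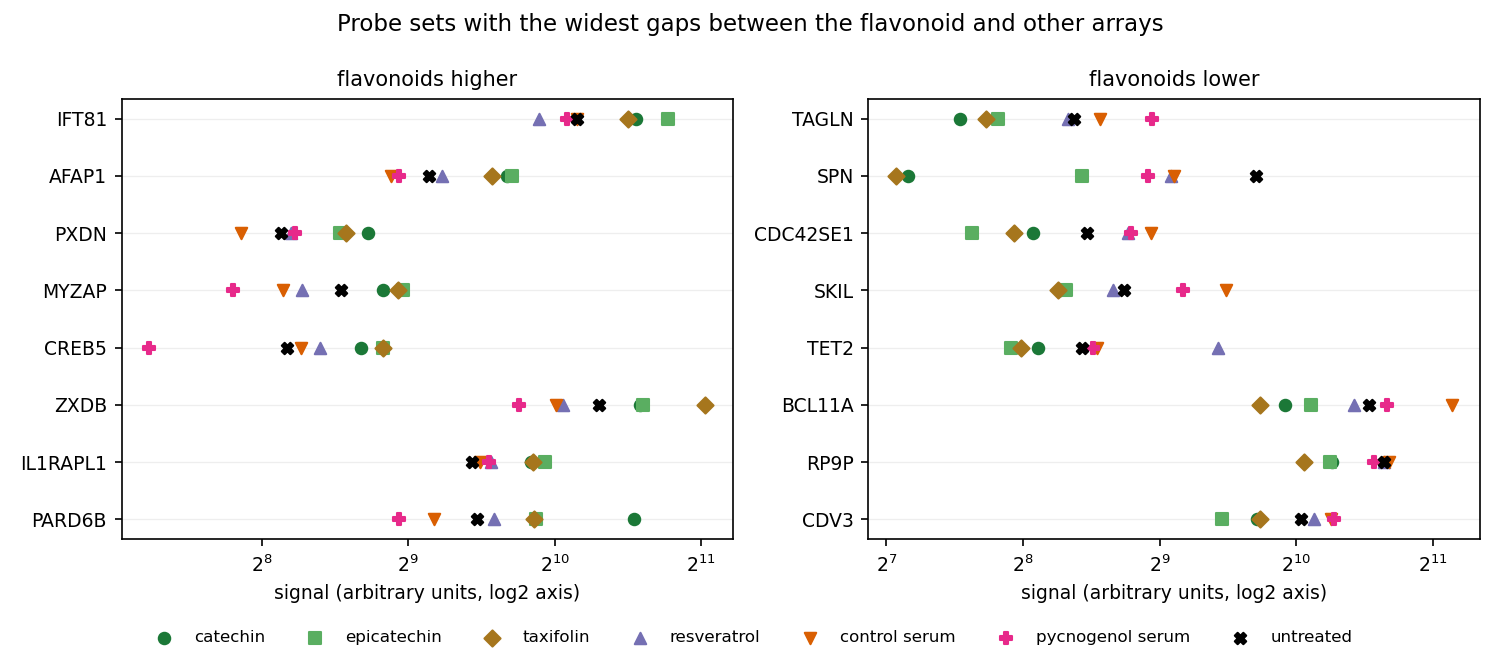
Signal of each array (log2 axis, arbitrary units) for the 16 probe sets with the widest gap between the 3 flavonoid arrays and the 4 others, 8 higher at the left and 8 lower at the right. The gaps run from 0.27 to 0.35 on the log2 scale at the left and from -0.51 to -0.30 at the right, and catechin, epicatechin and taxifolin lie together in most of them.

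Epicatechin and taxifolin were the 1 pair of flavonoids at the same dose and time. They differed by at least 2-fold in 131 probe sets (0.65%), 61 higher with epicatechin and 70 higher with taxifolin, and quantile normalization gave 72 and 57. Of the 131, 106 were among the dimmest 6719 probe sets, 16 in the middle and 9 among the brightest. Higher with epicatechin were LINGO3, JPT2, SLC35C1, the Golgi carrier of GDP-fucose, ASIC1, an acid-sensing ion channel, and ELK4, a partner of serum response factor. Higher with taxifolin were CALD1, the actin-binding caldesmon, PIP4K2A, a phosphoinositide kinase, ARID1B, a subunit of a chromatin remodelling complex, PPFIA1, a focal adhesion scaffold, and PHPT1, a phosphohistidine phosphatase.

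LINGO3 read 270.4, 468, 63.8, 589.9, 223, 900.3 and 499 and differed by 2.88 between epicatechin and taxifolin. Taxifolin was the lowest of all arrays, and the values of the other arrays spanned a wide range around that of epicatechin. A CALD1 probe set read 276, 154, 742, 228, 399, 474 and 298, a difference of -2.26, with taxifolin highest and epicatechin lowest of the 7. The 4 other CALD1 probe sets differed by -0.38 to 0.22. PIP4K2A read 481, 131, 577, 603, 701, 427 and 457, differing by -2.14 with epicatechin alone low. Its 2 others differed by -0.27 and -0.19, which is the same direction. ELK4 read 1983, 5245, 1752, 3356, 1218, 6071 and 2482, differing by 1.58, and the pycnogenol serum array was higher still. Its 3 other probe sets differed by -0.55 to 0.06. Of the 12 probe sets named from this pair, 9 had others, and 11 of these 21 others shared the direction.

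Read by at least 2 probe sets, 63 of 4702 genes had any probe set past 2-fold between epicatechin and taxifolin and none had all. In 4 genes (0.0851%) every probe set was at least 1.5-fold apart, MED18 lower with epicatechin, and GPANK1, KDM5C and ETV4 higher. GPANK1 read 4095, 6643, 3865, 8475, 7221, 5798 and 6603 and 1019.8, 1566, 785, 778, 1502, 905 and 1136, with differences of 0.78 and 1.00. Both probe sets had epicatechin above catechin and taxifolin, but the untreated array was at the level of epicatechin in the first and nearer to catechin in the second. KDM5C, a histone demethylase, read 378, 461, 273, 195, 311, 210.3 and 384 and 348, 388, 228, 344, 362, 395 and 303, with differences of 0.75 and 0.77, where taxifolin was the lowest flavonoid and untreated lay between it and epicatechin. ETV4, an ETS factor of the PEA subfamily, read 452, 653, 413, 462, 317, 436 and 397 and 405, 467, 292, 325, 294, 344 and 414, with differences of 0.66 and 0.68. Epicatechin was the highest of the 7 arrays in both. With 1 array of each compound no interval of these differences could be given, and probe sets under 2-fold do not show that the compounds act alike.

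Catechin was given at a higher dose than the other 2, so its values stand side by side with theirs. Against the mean of the other 2, catechin was past 2-fold in 39 probe sets (0.193%), 16 higher and 23 lower. Epicatechin was past it in 59 (0.293%), 21 higher and 38 lower, which became 22 and 26 under quantile normalization, and taxifolin in 53 (0.263%), 15 higher and 38 lower. Past 2-fold were 85 probe sets between catechin and epicatechin (0.422%) and 92 between catechin and taxifolin (0.456%), at doses that differ. TNRC6A, a scaffold of microRNA silencing, was highest with catechin of all arrays, reading 4757, 1619, 2325, 4246, 1911, 3314 and 2591, with resveratrol next to it. Its 2 other probe sets were -0.11 and 0.14 from the mean of the other 2 flavonoids. SUCLG2, a subunit of mitochondrial succinyl-CoA synthetase, was lower with catechin in each of its 3 probe sets, at -0.45 to -0.42 on the log2 scale. One of them read 7381, 10543, 9189.9, 9970.5, 8519.6, 7357 and 9478, and the pycnogenol serum array was lower still. MED18 was the 1 gene (0.0213%) with every probe set at least 1.5-fold from the mean of the other 2 with catechin, at 0.72 and 0.95, but epicatechin lowered that mean and catechin was close to taxifolin in 1 of the 2 probe sets. GLIDR, a long noncoding RNA, came next with 0.58 to 0.71 in 3 probe sets. The first of them read 884, 585, 597, 655, 535, 761 and 584, catechin being the highest of all 7 arrays.

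Single probe sets showed larger differences of 1 flavonoid. EPOR, the erythropoietin receptor, read 738, 247, 364, 374, 395, 421 and 358, with catechin alone high and at 1.30 from the mean of the other 2. Its other probe set was at -0.26. SPRR4, a protein of the cornified envelope, read 98, 432, 325, 362, 451, 297 and 366, with catechin alone low and at -1.94. POTEKP, an actin-related pseudogene, read 902, 3171, 1083, 861, 813, 1307 and 1187, so that epicatechin alone was high. PHPT1 read 1344, 397, 1061, 1185, 648, 1182 and 817, with epicatechin lowest at -1.59 and its other probe set at 0.14. AGGF1, an angiogenic factor, read 643, 1603, 624, 834, 1742, 837 and 1773, where epicatechin stood with control serum and untreated, and catechin and taxifolin with the rest. Epicatechin was at 1.34 from the mean of the other 2 there, and at -0.21 to 0.03 in the other AGGF1 probe sets.

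Taxifolin alone was low for ASIC1, ST20-AS1 and SLC35C1. ASIC1 read 578, 479.5, 136, 352, 405, 256 and 273, a difference of -1.96 from the other 2, while its other probe set was at 0.44. ST20-AS1, an antisense RNA, read 651, 542, 177, 691, 541, 614 and 362, a difference of -1.75. SLC35C1 read 299, 408, 104, 335, 246, 299 and 336, also at -1.75, and its other probe set was at 0.52. N4BP2L2 was higher with taxifolin at 1.21, reading 350.0, 448, 916, 458, 325, 324 and 859, with untreated beside it. Its 4 other probe sets were at 0.028 to 0.49, the same side. Of the other probe sets of the named genes, 4 of 8 lay on the same side for catechin, 13 of 22 for epicatechin and 13 of 18 for taxifolin.

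Epicatechin was the lowest array for NSDHL, a dehydrogenase of cholesterol synthesis, in both of its probe sets. These read 1206, 806, 1187, 1564, 854, 1105 and 1074 and 2882, 1389, 1871, 2617, 1522, 1447 and 1892, with differences of -0.57 and -0.74 from the mean of catechin and taxifolin. Control serum was next to it in the first and pycnogenol serum in the second. Every probe set of MED18, GPANK1 and CMIP, an adaptor protein, was at least 1.5-fold from the mean of the other 2 flavonoids with epicatechin (3 of 4702 genes, 0.0638%). For CMIP this mean was lowered by catechin in 1 probe set, which read 147, 437, 418, 419, 317, 368 and 426, with epicatechin close to taxifolin. Taxifolin was in that position for KDM5C and LRIG2, a membrane protein with leucine-rich repeats (2 genes, 0.0425%). LRIG2 read 554, 537, 362, 623, 462, 459.9 and 514 and 659, 772, 434, 427, 587, 619 and 748, taxifolin being the lowest in the first and next to the lowest, resveratrol, in the second.

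The gene lists were read with 1 probe set a gene, and set beside all 9888 genes, whose median flavonoid difference from untreated was 0.029 with 57.9% above 0. Genes of the NRF2 response had a median of 0.012, 14 of 26 above 0 and none past 2-fold, and the median was -0.0059 under quantile normalization. NQO1, a quinone reductase, read 8744, 9779, 9122, 9007, 10138, 9106 and 8344, and TXNRD1, a thioredoxin reductase, 30743, 32370.4, 32716, 32722, 33482, 28697 and 31684. HMOX1, the haem oxygenase, read 1883, 1814, 2015, 1436, 5892, 5155 and 1801, and GCLM, the modifier subunit of glutamate-cysteine ligase, 12664, 12460.3, 12188, 13477, 16445, 18387 and 12297. In HMOX1 and GCLM both serum arrays were above the flavonoid, resveratrol and untreated arrays, which lay together. The largest differences of the list were those of BACH1, the repressor of these genes, at -0.28, KEAP1 at 0.26 and the glutathione reductase GSR at -0.25. BACH1 read 3125, 4583, 2802, 2926, 3592, 3298 and 4145, so that epicatechin was the highest array and taxifolin the lowest, 0.71 apart.

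The antioxidant response element, the DNA site through which NRF2 acts, is shown for 3 genes of the list as it lies near their starts. The core searched was TGACNNNGC on both strands. Among RefSeq promoters of GRCh38.p14, taken from 250 bases before to 50 after a gene's start, it is found in 4687 of 35116 (13.3%), and in 9 of 36 promoters of the list, which belong to 8 of the 24 list genes with a promoter in the table. A match describes these letters and is not shown to be a site in use. In the sequences the core is in capitals, those reading GCNNNGTCA being on the opposite strand.
GCLM, chr1:93909381-93909680, minus strand: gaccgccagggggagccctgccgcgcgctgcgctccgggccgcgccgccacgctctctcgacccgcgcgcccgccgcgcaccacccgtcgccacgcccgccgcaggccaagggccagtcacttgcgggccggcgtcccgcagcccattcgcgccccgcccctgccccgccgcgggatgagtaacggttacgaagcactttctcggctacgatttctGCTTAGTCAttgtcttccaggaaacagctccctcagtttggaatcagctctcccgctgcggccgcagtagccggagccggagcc
ME1, chr6:83431002-83431301, minus strand: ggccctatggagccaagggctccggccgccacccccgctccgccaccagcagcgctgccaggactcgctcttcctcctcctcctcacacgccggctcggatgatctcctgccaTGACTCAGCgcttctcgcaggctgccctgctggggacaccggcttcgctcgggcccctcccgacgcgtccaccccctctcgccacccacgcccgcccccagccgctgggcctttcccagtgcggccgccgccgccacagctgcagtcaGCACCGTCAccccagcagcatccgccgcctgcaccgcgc
TXNRD1, chr12:104215529-104215828, plus strand: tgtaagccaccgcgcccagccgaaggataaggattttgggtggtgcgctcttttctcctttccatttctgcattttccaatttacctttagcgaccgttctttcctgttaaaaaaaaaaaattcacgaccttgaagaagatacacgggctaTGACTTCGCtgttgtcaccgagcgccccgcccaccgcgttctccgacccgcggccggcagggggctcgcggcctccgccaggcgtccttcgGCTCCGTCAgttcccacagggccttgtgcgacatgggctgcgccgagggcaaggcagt
The signals of the 3 genes differed from untreated by 0.02 (GCLM), 0.09 (ME1, malic enzyme) and 0.01 (TXNRD1) in the flavonoid mean. ME1 read 11555, 11508, 11417, 10744, 10369, 10896 and 10789, with the 3 flavonoid arrays highest and close together.

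Enzymes that remove peroxide and superoxide had a median of 0.075, with 16 of 22 above 0. CCS, the copper chaperone of superoxide dismutase, was the furthest at 0.38 and read 574, 626, 681, 596, 489, 525 and 479.9. Genes of flavonoid conjugation and transport had a median of 0.14, 8 of 12 above 0. The median was 0.17 with catechin, 0.019 with epicatechin and 0.071 with taxifolin, but also 0.16 with resveratrol. STS, the steroid sulfatase, differed by 0.27 and was higher still with resveratrol, reading 767, 847, 775, 940.4, 749, 669 and 661. The median of AhR and xenobiotic genes was 0.081, with 16 of 23 above 0. CYP1A1, its best known target, read 362, 309.7, 336, 321, 397, 451 and 294, where the serum arrays were highest. CYP1A2 differed by 0.46 and read 426, 387, 352, 295, 359, 254 and 281. Each flavonoid was above resveratrol and untreated there, with a gap of 0.26, but control serum was above taxifolin. GSTM2 differed in the other direction, by -0.44. GSTM1, a glutathione transferase, was furthest at -0.56, with signals of 476, 481, 278, 482, 434, 380.3 and 588. It was -1.08 with taxifolin, the 1 member past 2-fold there, against -0.31 with catechin and -0.29 with epicatechin, and its other probe set was at 0.014 in the flavonoid mean.

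Genes of NF-kB and inflammatory cytokines had a median of -0.069, with 8 of 23 above 0 and none past 2-fold, and centring brought the median to -0.0023. The median was -0.098 with catechin and -0.12 with epicatechin, but 0.0039 with taxifolin, and it was -0.058 with resveratrol. NFKBIA, the inhibitor that NF-kB induces in feedback, read 2299, 1735, 2115, 1828, 2162, 3265 and 2725, a difference of -0.42, and each flavonoid was below untreated. CXCL8, a neutrophil chemokine, read 5545, 6555, 5880.4, 4925, 5726, 4467 and 7109, a difference of -0.25, and resveratrol was lower than any flavonoid. IL1B read 18176, 24301, 21028, 17774, 7662, 4718 and 24251, with epicatechin level with untreated and the serum arrays far lower. With resveratrol as the reference the median of the list was 0.051, the other sign.

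Of the matrix proteolysis list 16 of 27 were above 0, with a median of 0.011 that turned to -0.029 under quantile normalization. Its furthest members were ADAM15 at -0.80, SH3PXD2A at -0.54 and MMP9 at 0.38. ADAM15 read 464, 633, 540, 188, 591, 175 and 941, with resveratrol and pycnogenol serum below the flavonoids. SH3PXD2A was at -1.35 with taxifolin, against -0.12 with catechin and -0.13 with epicatechin. MMP2, a gelatinase, read 1944, 1714, 1753, 1535, 1882, 2184 and 1501, a difference of 0.26, and its activator MMP14 read 5642, 7330.3, 5763, 5528, 6203, 5373 and 5360.4, a difference of 0.21. MMP9, the other gelatinase, read 426, 315, 219, 335, 443, 373 and 238, with catechin high and taxifolin lower than untreated. PLAU, the urokinase, read 24155, 25427, 31368, 23784, 23594, 22488 and 29289.9, a difference of -0.13 in which taxifolin was the highest array. Replication-dependent histones had the largest median at 0.18, 8 of 9 above 0. The median was 0.35 with catechin, 0.025 with epicatechin and 0.21 with taxifolin, but 0.38 with resveratrol, and -0.15 for the flavonoid mean with resveratrol as the reference. H2BC21 read 436, 478, 635, 676, 423, 451 and 317, a difference of 0.69, with resveratrol highest.

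The G1/S and DNA replication list had a median of 0.088 (28 of 38 above 0) and the G2/M and mitosis list one of 0.056 (30 of 40). CCNE1, cyclin E, was 0.51 lower on the log2 scale, reading 776, 728, 562, 868, 1055, 1143 and 971 and lying below all 4 other arrays with each flavonoid, and its paralogue CCNE2 read 4869, 3891, 4221, 5577, 4944, 6073 and 3396, a difference of 0.34. Heat shock genes had a median of 0.10 (12 of 17), led by DNAJB1 at 0.34, and sterol synthesis one of 0.084 (13 of 20). The heat shock median was higher in the other arrays against untreated, at 0.13 with resveratrol, 0.28 with control serum and 0.33 with pycnogenol serum. INSIG1, the sterol sensor partner, read 8806, 7791, 7150.2, 7337, 1889, 1821 and 6287, a difference of 0.33 with the serum arrays far lower. Apoptosis regulators (median 0.015), p53 targets (0.024), hypoxia and glycolysis (0.020), proteasome subunits (0.043) and cytosolic ribosomal proteins (0.025) were near the median of all genes. So were immediate early genes (0.0041), iron genes (0.052) and DNA methylation and acetylation enzymes (0.065), and genes of the ATF4 response had a median of -0.055, which centring turned to 0.011. With resveratrol as the reference 13 of the 23 list medians kept their sign, and those of the G1/S (-0.11), G2/M (-0.043) and sterol (-0.074) lists did not. DAXX, a regulator of death receptor signalling, was the furthest of the apoptosis list at 0.90, reading 1699.7, 1102, 858, 1983, 993, 1559 and 629. Catechin and resveratrol were highest and untreated lowest, and the other DAXX probe set was at 0.13.

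A list could also hold 1 gene that stood out. PPP2R5A was past 2-fold in a list of protein phosphatase 2A genes whose median was 0.042 (18 of 26 above 0). The next furthest of that list were ANP32A at -0.29 and IGBP1 at -0.22. MAPK11 stood likewise in a list of MAP kinases with a median of -0.00084 (11 of 25), positive under quantile normalization and centring, and ACACB in the fatty acid and AMPK list with one of 0.037 (17 of 29). Resveratrol, control serum and pycnogenol serum differed from the same untreated array by 1.09, 1.17 and 1.04 for PPP2R5A. For MAPK11 they differed from it by 2.06, 1.57 and 1.93, and for ACACB by 1.31, 0.40 and 0.23. Between epicatechin and taxifolin, the list medians lay between -0.25 (histones) and 0.10 (MAP kinases), beside -0.00066 over all genes.

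**Figure D5:**
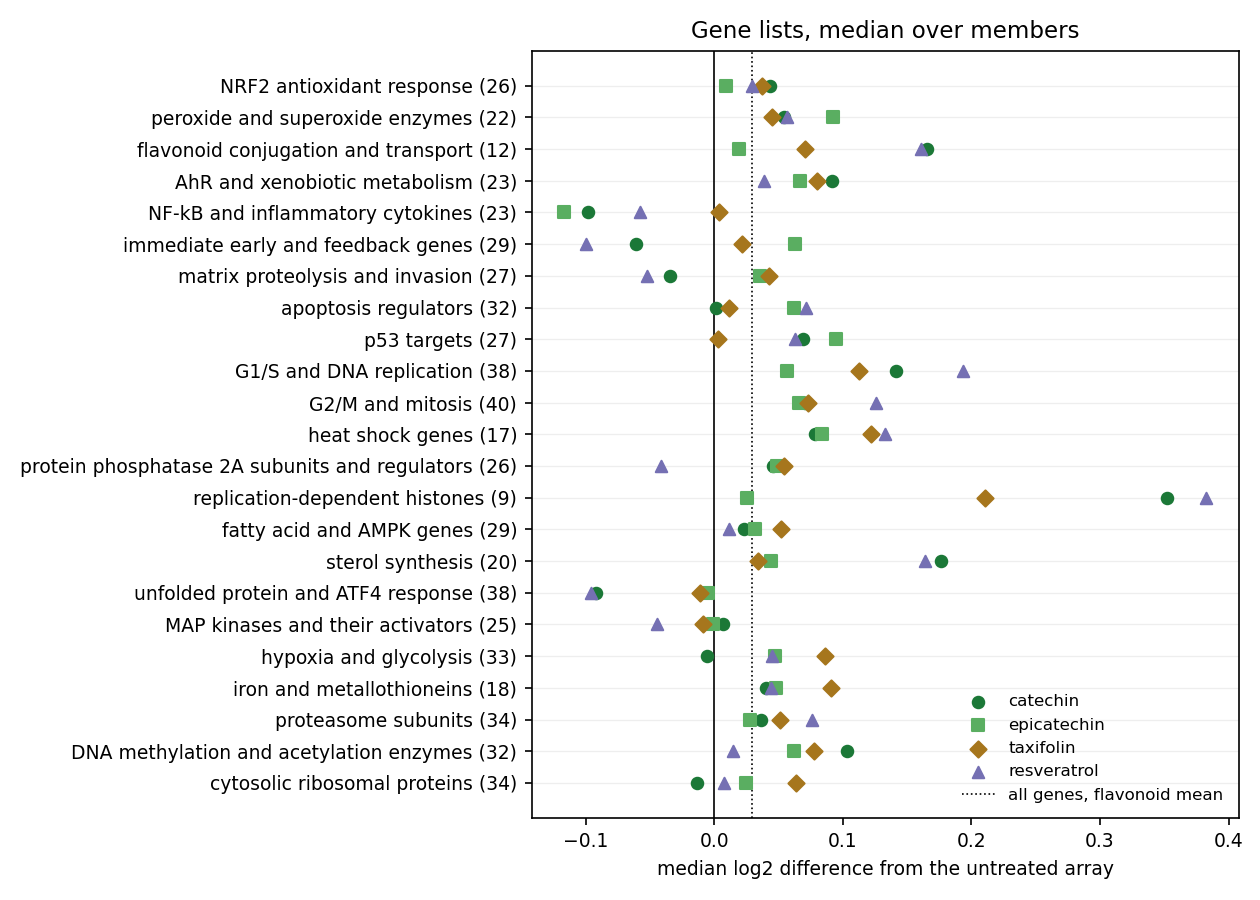
Median log2 difference from the untreated array over the members of 23 gene lists, with the number of members above the signal limit in brackets, for the catechin, epicatechin, taxifolin and resveratrol arrays; the dotted line is the median over all 9888 genes for the flavonoid mean (0.029). All medians lie within 0.4 of 0, and those of histones are the highest for catechin, taxifolin and resveratrol.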

How the data were processed

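Transcript levels were measured on Affymetrix Human Genome U133 Plus 2.0 arrays, 1 for each of 7 HT1080 cultures. The deposited values are signal intensities that the authors made with MAS5, per the submitters' processing notes; its version, its detection calls and the raw probe intensities are not given in the sources used here or were not used here. A floor was set at 34.9, the 25th percentile of the table, and log2 was taken after it. Control probe sets (62) were left out, and kept were the 20157 probe sets whose mean log2 signal reached the median of genes (8.07). Of 54675 probe sets, 41097 have 1 gene symbol, 1801 several and 11777 none in the platform's annotation. For the gene lists a gene was read by its brightest probe set. A call is a difference of at least 2-fold. With 1 array a group no test was possible, and the number of arrays limits the precision.

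The probe sets named are those of exactly 1 gene: the 12 largest differences in each direction for the flavonoid mean, the 8 widest gaps to the 4 other arrays, the 6 largest for each flavonoid and for epicatechin against taxifolin, and the 3 furthest members of each list. Some are given by their range only, and not all of the furthest list members are shown. Which of these list members are shown was not fixed beforehand. Genes outside the rule were chosen after their values were seen: MED18, GLIS3, GPANK1, KDM5C, ETV4, CMIP, LRIG2, NSDHL, SUCLG2, GLIDR, ECM2, TPM2, APOL6, GAD1, GAREM1 and the pathway genes whose levels are shown though they are not among the 3 furthest of their list. The compounds compared and the lists were chosen with earlier results of these data known. Alternatives were quantile normalization, centring on the median, other floors and signal limits, other fold thresholds, other choices of probe set and other reference arrays. Counting was checked on simulated signals. Python 3.11.15 was used with pandas 2.3.3, numpy 2.4.6, scipy 1.17.1 and matplotlib 3.10.9.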

Additional observations from a re-analysis of the deposited data

How the results depend on the processing

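Counts past 2-fold moved most with the signal limit and the fold; the cause was not tested, but a wider or narrower limit changes which probe sets are counted by construction. Counts are given in the order flavonoid mean against untreated, flavonoids not overlapping resveratrol and untreated, not overlapping the 4 others, catechin, epicatechin and taxifolin each against the other 2, epicatechin against taxifolin, and catechin, epicatechin and taxifolin each against untreated. Without a signal limit they were 3128, 1157, 303, 3194, 3478, 3580, 5337, 5072, 5451 and 5307. At the 75th percentile of genes they were 3, 0, 0, 2, 3, 2, 10, 6, 9 and 5. At 1.5-fold they were 543, 142, 76, 461, 628, 625, 1083, 1003, 1049 and 1037, and at 3-fold 4, 2, 1, 3, 4, 8, 9, 12, 9 and 13. Without probe sets that can read several transcripts they were 20, 3, 1, 24, 38, 25, 78, 73, 66 and 70. With 1 probe set a gene, the flavonoid mean had 17, the single flavonoids 16, 17 and 12 against the other 2, epicatechin against taxifolin 32, and the single flavonoids against untreated 45, 31 and 46. A limit on the linear mean gave 10 probe sets clear of resveratrol and untreated. Centring gave 5 clear of the 4 others, and leaving out the serum arrays, an alternative added after seeing the data, gave 6. For the flavonoid mean, the mean of resveratrol and untreated as reference gave 10, the mean of the 4 others 18, and leaving out the epicatechin array 64. The mean SD among flavonoid pairs was 0.559 without a signal limit and 0.186 at the 75th percentile, against 0.275. Centring gave 6 higher and 3 lower clear of resveratrol and untreated, and quantile normalization 3 and 3. None of the 88 named differences changed sign under quantile normalization, centring or another floor, and 1 fell under 2-fold with a floor at the 40th percentile. The 16 named for their gap to the 4 other arrays were not held to 2-fold in this count. The rest had been picked for being past 2-fold, so their kept sign is a description only. List medians kept their sign in 20 of 23 lists under quantile normalization, 21 under centring and 13 with resveratrol as reference. No paired analysis was possible because each group is 1 array. Dim probe sets, 106 of the 131 between epicatechin and taxifolin, limit what can be read.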
